A study of Mus musculus with 11 samples.

Results

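Cyclins, the kinases they activate, the inhibitors of those kinases, the retinoblastoma family and the E2F factors were examined in accessible chromatin of mouse CD4 T cells, together with the Cdc25 phosphatases and the antiproliferative BTG and TOB proteins. The set holds 39 genes. Each consensus peak was given to the gene whose RefSeq transcription start site lay nearest to the peak's centre, and this assigned 158 of 38509 peaks to the set. All 39 genes had at least 1 peak, from 1 peak for Ccna2, Ccnb2, Ccnd1, Cdk4 and others to 31 for Btg1. Of the 158 peaks, 47 lay within 1000 bases of a start site and are called promoter peaks, and 111 were distal. A nearest gene is a position and not a target, so distances are given where a result rests on a distal peak. Neighbouring genes are given only for some of these peaks.

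The data are ATAC-seq signal, a measure of how readily a transposase cuts DNA, in 11 libraries of sorted CD4 T cells from mixed spleen and lymph node. All cells came from wildtype C57BL/6 mice with polyclonal T cells and a Foxp3-GFP reporter, were freshly isolated and had no treatment, and the 4 groups were separated by surface and reporter phenotype. Anergic cells (n = 3) were CD44high, FOXP3 negative, CD73high, FR4high and NRP1+. Treg cells (n = 3) were FOXP3+ and CD25+, Teff cells (n = 3) were CD44high, FOXP3 negative, CD73low and FR4low, and naive cells (n = 2) were CD44low. The comparisons ask how chromatin at cell cycle genes in cells marked as anergic differs from that in effector, regulatory and naive cells. Nothing in the sources ties a replicate to its own animal, and the p-values therefore reflect only library-to-library spread, which may be technical. In bulk libraries, fewer cells with an open site and less opening per cell cannot be told apart.

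Reads in peaks ranged from 14.7 to 68.8 M per library, with 14.7 to 29.7 M in Treg and 45.7 to 48.1 M in naive libraries. A member peak held 6 to 20977 reads in a library, with a median of 230.5. All 8 genes that define the sorted populations (Cd4, Cd3e, Cd44, Nt5e for CD73, Izumo1r for FR4, Nrp1, Foxp3 and Il2ra for CD25) had peaks. Their summed deposited signal was 21970.0 to 24561 in anergic, 20000.0 to 20933 in Treg, 16341 to 18776 in Teff and 14218 to 14620.0 in naive libraries. The peak nearest to Foxp3, the defining factor of Treg cells, read 96.05 to 184 in anergic, 1118 to 1597 in Treg, 14.04 to 63.3 in Teff and 7.74 to 15.4 in naive libraries. For other cell types, peaks were found for 3 of 7 B cell genes, 3 of 5 erythroid genes, 4 of 7 myeloid genes (none for Lyz2, Csf1r or Fcgr1) and 5 of 7 CD8, NK and innate-like T genes (none for Cd8a or Ncr1). The summed signal of the CD8, NK and innate-like T list was 20988 to 26477 in anergic, 19545 to 24962 in Treg, 25455 to 29557 in Teff and 23939 to 24419 in naive libraries. Within this list Zbtb16 and Xcl1 were highest in Teff libraries, Cd8b1 and Eomes in naive libraries, and Klrb1c overlapped between groups. The part of such cells in results that are highest in Teff libraries was not tested. The B cell sum was 503 to 597 in anergic, 604 to 619 in Treg, 485 to 622 in Teff and 656 to 691 in naive libraries. The erythroid sum was 2218 to 2698 in anergic, 1954 to 2246 in Treg, 2423 to 2508 in Teff and 2959 to 3104 in naive libraries. Both were highest in the naive libraries, and their part in results that are highest there was not tested. The myeloid sum was 3528 to 3828 in anergic, 2053 to 2278 in Treg, 1978 to 2375 in Teff and 1681 to 1972 in naive libraries. It was highest in the anergic libraries, and its part in results that are highest there was not tested.

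A resting T cell enters division when D-type cyclins with Cdk4 or Cdk6, and then E-type cyclins with Cdk2, phosphorylate the pocket proteins Rb1, Rbl1 and Rbl2. This frees E2F factors to switch on genes for DNA replication, while A- and B-type cyclins with Cdk1 carry the cell through mitosis. Inhibitors of the Cip and Kip family (Cdkn1a, Cdkn1b, Cdkn1c) bind cyclin and kinase complexes, those of the Ink4 family (Cdkn2a, Cdkn2c, Cdkn2d) block Cdk4 and Cdk6, and Cdkn1b is known for its accumulation in anergic T cells. Btg1 and Btg2, which recruit the enzymes that shorten messenger RNA tails, help to keep naive T cells quiescent.

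The regions that carry the main differences are shown first, as up to 300 bases of 3 distal peaks read from the RefSeq mm10 (GRCm38.p6) genome on the plus strand, followed by 5 promoter windows from RefSeq on the same build, each from 250 bases before to 50 bases after a start site in the direction of transcription. The distal peaks are sites with some of the largest differences between groups, and they were picked, with their values known, among those that hold the motif named for them. The promoters are 4 at which groups differed, with the first start of E2f2, at which no comparison passed, set beside the second for contrast. Capitals mark a match, on either strand, to the RUNX motif TGTGGTT in Rbl2, the AP-1 motif TGANTCA in Cdk6 and Ccnd3, the E2F motif (TTTCCCGC, TTTCGCGC, TTTGCCGC or TTTGGCGC) in Cdkn2a, Cdk1 and the first E2f2 window, and the CHR motif of cell cycle genes (TTTGAA) in Ccnb2 and the second E2f2 window.
Rbl2 intron, centre of the peak 18.6 kb downstream of the start, chr8:91088535-91088834, plus strand: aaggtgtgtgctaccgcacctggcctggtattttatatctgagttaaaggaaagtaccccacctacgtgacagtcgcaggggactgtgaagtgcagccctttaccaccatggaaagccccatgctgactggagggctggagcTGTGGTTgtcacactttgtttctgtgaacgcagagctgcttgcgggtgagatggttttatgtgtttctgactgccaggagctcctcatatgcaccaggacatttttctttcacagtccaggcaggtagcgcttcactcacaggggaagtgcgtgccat
Cdk6 intron, part of the peak 12.2 kb downstream, chr5:3355896-3356195, plus strand: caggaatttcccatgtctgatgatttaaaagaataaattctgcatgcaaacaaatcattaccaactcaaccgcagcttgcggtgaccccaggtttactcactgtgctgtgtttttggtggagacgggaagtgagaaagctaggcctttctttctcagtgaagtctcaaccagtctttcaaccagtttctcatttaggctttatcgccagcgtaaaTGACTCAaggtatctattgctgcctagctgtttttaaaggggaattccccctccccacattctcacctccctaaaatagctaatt
Ccnd3 intron, peak 28.7 kb upstream of the second start, chr17:47564663-47564962, plus strand: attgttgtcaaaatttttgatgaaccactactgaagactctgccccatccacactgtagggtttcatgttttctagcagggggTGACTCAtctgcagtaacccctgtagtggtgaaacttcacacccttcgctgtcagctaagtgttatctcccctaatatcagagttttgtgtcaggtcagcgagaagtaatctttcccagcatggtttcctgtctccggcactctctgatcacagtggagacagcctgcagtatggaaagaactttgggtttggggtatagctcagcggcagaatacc
Cdkn2a promoter, Arf start, chr4:89294570-89294869, minus strand: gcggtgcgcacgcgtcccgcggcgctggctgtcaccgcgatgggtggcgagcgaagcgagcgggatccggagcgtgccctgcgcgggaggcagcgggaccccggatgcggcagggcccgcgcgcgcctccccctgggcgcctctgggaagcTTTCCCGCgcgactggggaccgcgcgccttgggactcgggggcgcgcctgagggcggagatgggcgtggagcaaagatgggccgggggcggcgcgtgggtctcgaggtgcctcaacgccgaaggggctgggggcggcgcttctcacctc
E2f2 promoter, second start, chr4:136180532-136180831, plus strand: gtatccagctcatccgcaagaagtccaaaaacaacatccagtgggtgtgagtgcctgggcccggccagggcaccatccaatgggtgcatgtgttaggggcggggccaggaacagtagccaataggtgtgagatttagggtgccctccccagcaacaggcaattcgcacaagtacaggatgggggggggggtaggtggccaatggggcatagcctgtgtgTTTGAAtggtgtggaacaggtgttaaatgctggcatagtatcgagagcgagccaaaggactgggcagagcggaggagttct
E2f2 promoter, first start, chr4:136172024-136172323, plus strand: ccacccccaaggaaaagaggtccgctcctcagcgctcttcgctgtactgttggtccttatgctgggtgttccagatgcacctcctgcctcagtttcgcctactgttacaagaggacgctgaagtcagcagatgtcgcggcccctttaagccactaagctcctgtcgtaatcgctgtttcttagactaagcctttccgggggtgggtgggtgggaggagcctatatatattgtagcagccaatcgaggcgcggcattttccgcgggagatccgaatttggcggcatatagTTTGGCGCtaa
Cdk1 promoter, chr10:69352863-69353162, minus strand: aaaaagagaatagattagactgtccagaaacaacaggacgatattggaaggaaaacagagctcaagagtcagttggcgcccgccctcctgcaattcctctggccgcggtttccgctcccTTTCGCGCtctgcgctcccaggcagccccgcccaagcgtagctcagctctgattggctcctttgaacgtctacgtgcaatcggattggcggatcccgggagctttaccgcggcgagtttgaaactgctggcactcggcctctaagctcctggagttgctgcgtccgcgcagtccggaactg
Ccnb2 promoter, chr9:70421505-70421804, minus strand: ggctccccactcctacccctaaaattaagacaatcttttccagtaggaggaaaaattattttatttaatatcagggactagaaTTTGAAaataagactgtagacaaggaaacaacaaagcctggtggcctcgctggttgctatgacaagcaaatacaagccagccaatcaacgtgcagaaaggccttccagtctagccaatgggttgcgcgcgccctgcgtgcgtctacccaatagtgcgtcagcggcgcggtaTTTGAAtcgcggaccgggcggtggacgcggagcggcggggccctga

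A match is a description of the letters and not a bound site. An E2F match was present in 8 of 36 windows available for 30 of the 39 genes (22.2%), against 2.26% of 32851 windows of all genes. The genes with an E2F match were Cdc25a, Cdk1, Cdk2, Cdkn2a, E2f2, E2f3, E2f7 and Rbl1. Those with a CHR match were Ccnb2, Cdk1, E2f2, E2f3, E2f8 and Rbl2. In the Cdk1 window printed above only the E2F match is in capitals, and its CHR matches are in lower case. A CHR match was present in 16.7% of member windows and 17.9% of all windows, an ETS match (CCGGAAG) in 11.1% and 8.86%, and a FOXO match (GTAAACA) in 5.56% and 3.65%. In whole peaks, 31.9% of the 47 member promoter peaks and 9.87% of 12766 promoter peaks held an E2F match. An AP-1 match was present in 18.9% of the 111 distal member peaks and in 18.6% of 25675 distal peaks, and a RUNX match in 11.7% and 17.5%.

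Accessibility differed among the 4 groups at 103 of the 158 member peaks (65.2%), against 66.0% of all 38493 peaks tested, by limma's moderated F-test at an adjusted p of 0.05. The share of variable sites in the set was thus near that of accessible sites in general. Between anergic and Teff cells, both CD44high and FOXP3 negative, 18 member peaks (11.4%) were higher in anergic cells and 22 (13.9%) were lower, against 15.9% higher and 16.8% lower over all peaks. Relative to naive cells, 37 were higher in anergic cells (23.4%, background 25.3%) and 44 lower (27.8%, background 25.1%). The lower count was 27 without naive replicate 1 and 26 without naive replicate 2. Over all peaks that count fell as well, from 9678 to 6989 and 7738. Relative to Treg cells, 19 were higher in anergic cells (12%, background 19.4%) and 30 lower (19.0%, background 14.8%). The higher count was 12 without anergic replicate 2, and the lower count was 19 without Treg replicate 2 and 18 without anergic replicate 3. Over all peaks the higher count fell from 7462 to 5639, and the lower count from 5680 to 4644 and 4320, in the same fits.

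In Teff cells, 28 member peaks were higher than in naive cells (17.7%, background 22.7%) and 36 lower (22.8%, background 17.4%). The lower count was 21 and 22 without naive replicate 1 and naive replicate 2. Over all peaks that count fell from 6679 to 3645 and 4616. In Treg cells, 32 were higher than in naive cells (20.3%, background 22.3%) and 28 lower (17.7%, background 23.0%). Against Teff cells, Treg cells had 24 higher member peaks (15.2%, background 14.4%) and 22 lower (13.9%, background 18.2%). Comparisons with Treg cells depended on how libraries were scaled. With libraries scaled to total reads in peaks, the median over all peaks moved by -0.12 on the log2 scale for anergic over Treg and by 0.15 for Treg over naive. The share of higher among called member peaks was then 21.2% instead of 38.8% for anergic over Treg (11 higher, 41 lower), 70.1% instead of 53.3% for Treg over naive (47 and 20), and 67.3% instead of 52.2% for Treg over Teff (37 and 18). Over all peaks the same shares were 41.4% instead of 56.8%, 63.5% instead of 49.1% and 58.0% instead of 44.2%. The median log2 fold change over the 158 member peaks was -0.05 for anergic over Teff, -0.13 for anergic over naive and -0.03 for anergic over Treg, against -0.000687, -0.04 and 0.04 over all peaks.

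**Figure D1:**
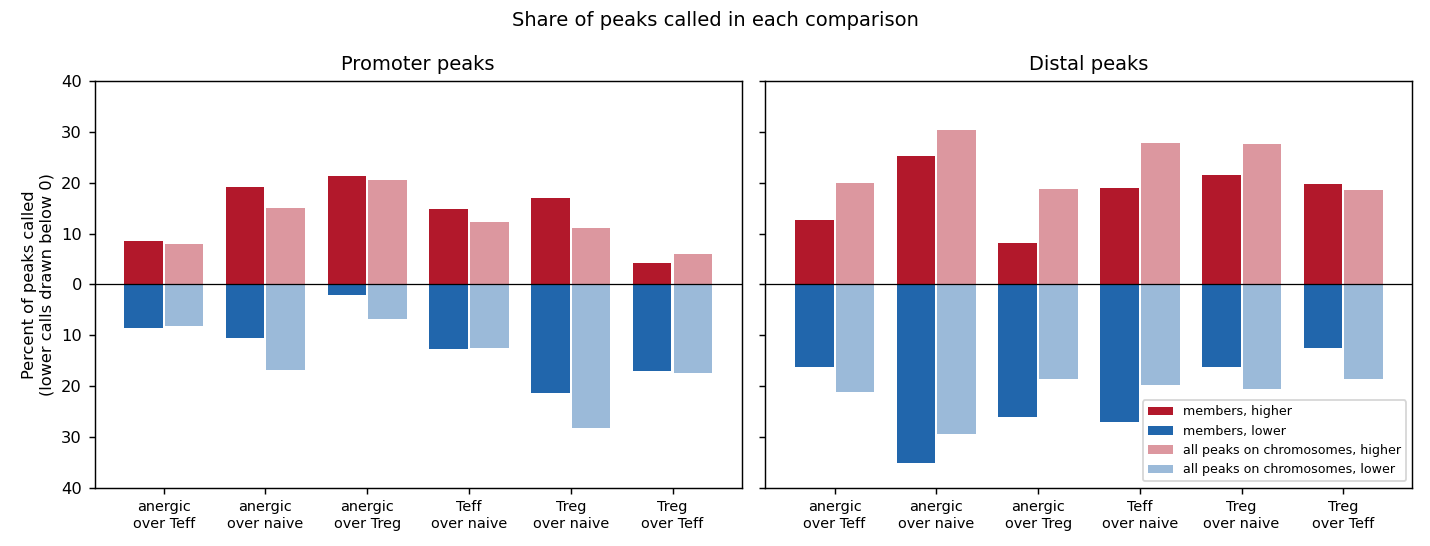
Percent of peaks called higher (drawn upwards) or lower (drawn downwards) in each comparison, for promoter peaks (left) and distal peaks (right). Dark bars are the member peaks (47 promoter, 111 distal) and pale bars all peaks on chromosomes. Among distal member peaks 26.1% were lower in anergic than in Treg cells, against 18.6% of all distal peaks. Of all 30 member peaks lower in that comparison, 10 were nearest to Btg1 and 7 to Ccnd3. The count was 18 to 30 without single libraries, and the comparison depended on library scaling.

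By the fold between group means, promoters varied little and distal sites varied more. The fold between the highest and lowest group mean had a median of 1.33 over the 47 member promoter peaks (1.35 over all promoter peaks) and 1.95 over the 111 distal member peaks (2.22 over all distal peaks). At least a 2-fold range was seen at 4 of 47 promoter peaks (8.51%, all promoter peaks 14.1%) and 53 of 111 distal peaks (47.8%, all distal peaks 56.4%). Distal member peaks were weaker, with a median signal of 161.7 against 1631 at promoters, and the part of this in the folds was not tested. By the F-test the contrast was smaller, with 55.3% of promoter and 69.4% of distal member peaks called (51.7% and 73.1% over all peaks). No peak lay within 1000 bases of a start site of Ccnd1, Cdk6 or E2f8, and the peak of Ccna2 missed that limit narrowly, at 1042 bases within its 5′ UTR. Cdk4, Cdk7, Cdkn1c, E2f4, Rbl1, Ccng2 and Cdc25c had no peak called in any of the 6 comparisons. The Cdk4 promoter, at the kinase partner of D-type cyclins, read 6398, 5488 and 6638 in the anergic libraries and 5999, 5471 and 6579 in Treg. Teff libraries read 5971, 6928 and 6434, and naive libraries 5288 and 5582. No comparison passed, although both naive libraries were below the 3 Teff libraries.

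**Figure D2:**
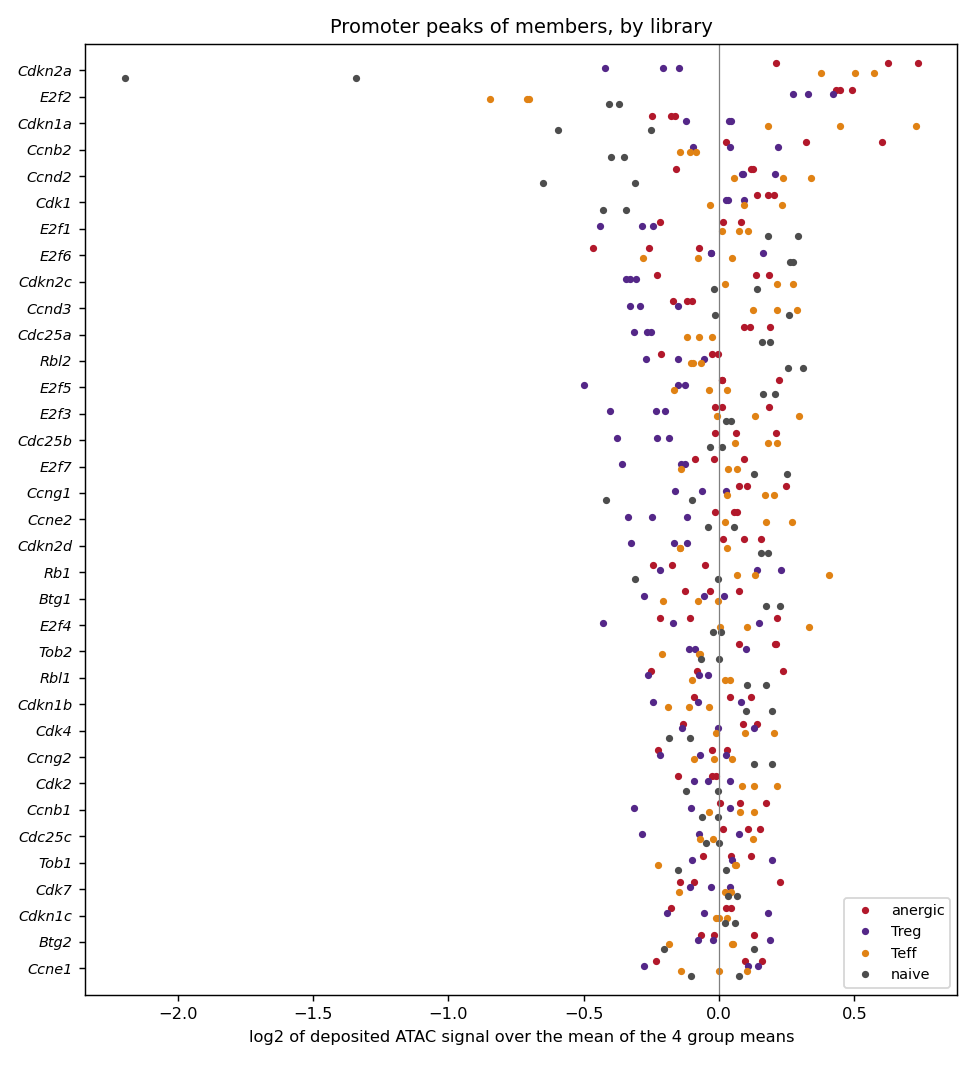
Promoter peaks of 35 genes, 1 row per gene (its strongest peak within 1000 bases of a start site), ordered from the largest range of group means at the top. The horizontal axis is log2 of each library's deposited signal over the mean of the 4 group means, and points are libraries. Most rows lie within 0.5 of 0, while naive libraries lie far to the left at Cdkn2a and Teff libraries at E2f2.

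The cyclins held 50 peaks in 10 genes. In anergic cells 4 were higher and 10 lower than in Teff cells, 7 higher and 18 lower than in naive cells, and 4 higher and 12 lower than in Treg cells. As shares, 8% were higher and 20% lower than in Teff cells (background 15.9% and 16.8%), 14% and 36% than in naive cells (25.3% and 25.1%) and 8% and 24% than in Treg cells (19.4% and 14.8%). Ccnd3 alone held 22 of the 50 peaks. It gave 9, 10 and 7 of the lower calls against Teff, naive and Treg cells, and 0, 1 and 1 of the higher calls. Ccnd2, a D-type cyclin, was higher in the 3 non-naive groups at its start: the promoter peak read 562, 684 and 679.7 in the anergic libraries and 664, 724 and 667 in Treg. Teff libraries read 652, 739 and 793, and naive libraries 399.7 and 506. This was 0.51 ± 0.15 on the log2 scale (adjusted p = 0.00883) for anergic over naive, and 0.69 ± 0.15 (adjusted p = 0.00109) for Teff over naive and 0.61 ± 0.15 (adjusted p = 0.00291) for Treg over naive, by limma. It did not pass between anergic and Teff cells (-0.18 ± 0.14, adjusted p = 0.350). The largest Ccnd2 difference lay 65.2 kb upstream, in an intergenic peak at chr6:127216079-127216398 that read 201, 191 and 134 in the anergic libraries and 142, 159.6 and 111 in Treg. Teff libraries read 34.6, 33.04 and 55.003, and naive libraries 12.2 and 10.8. All anergic and Treg libraries were above all Teff libraries, and all Teff libraries above naive. By limma the log2 fold change was 2.09 ± 0.30 (adjusted p = 1.26e-05) for anergic over Teff, 3.80 ± 0.34 (adjusted p = 4.00e-09) for anergic over naive and 1.75 ± 0.30 (adjusted p = 0.000126) for Treg over Teff. Between anergic and Treg cells it was 0.34 ± 0.30 (adjusted p = 0.409).

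Most other Ccnd2 peaks lay in introns of the noncoding gene 9330179D12Rik, which starts close to Ccnd2. The peak 6.40 kb upstream, chosen after its values were seen, averaged 148 ± 27.9 in anergic, 147 ± 16.1 in Treg, 61.5 ± 12.8 in Teff and 60.5 ± 8.59 in naive cells. It again separated anergic and Treg from Teff and naive libraries, at 1.26 ± 0.25 for anergic over Teff and 1.26 ± 0.25 for Treg over Teff. The peak 27.1 kb upstream went the other way, with 43.1, 10.5 and 24.2 in the anergic libraries and 69.8, 87.3 and 105 in Treg. Teff libraries read 19.4, 15.7 and 75.005, and naive libraries 115 and 153. Both naive libraries were above every other library, and the log2 fold change was -2.51 ± 0.56 (adjusted p = 0.000691) for anergic over naive and -1.90 ± 0.50 (adjusted p = 0.00581) for anergic over Treg. Against Treg cells anergic cells had no higher and 2 lower Ccnd2 peaks of 8 (background 19.4% higher and 14.8% lower). Against Teff cells 3 of the 8 were higher and none lower (background 15.9% and 16.8%). The Foxp3 peak and the myeloid sum given above were also higher in anergic than in Teff libraries, and their part in these values was not tested.

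Ccnd3, the D-type cyclin with the most peaks, had calls between anergic and Teff cells in a single direction. None of its 22 peaks was higher in anergic than in Teff cells and 9 were lower, and against naive cells 1 was higher and 10 lower. Of the 22 peaks, 20 were distal. The higher shares were 0% and 4.55%, against 19.9% and 30.4% of all distal peaks. The lower shares were 40.9% and 45.5%, against 21.2% and 29.4% of all distal peaks. The peak 4.80 kb downstream of the second start, inside an intron, read 579, 556 and 605 in the anergic libraries and 714, 622 and 686 in Treg. Teff libraries read 1229, 1212 and 1262, and naive libraries 942 and 929. Every Teff library was above every other library. Both naive libraries were above the anergic and Treg libraries. On the log2 scale the difference was -1.09 ± 0.12 (adjusted p = 2.58e-07) for anergic over Teff and -0.87 ± 0.12 (adjusted p = 5.51e-06) for Treg over Teff. The promoter peak at the second start averaged 2575 ± 63.4 in anergic, 2358 ± 154 in Treg, 3259 ± 182 in Teff and 3078 ± 409.8 in naive cells. It was lower in anergic than in Teff cells by the same test, at -0.34 ± 0.10 (adjusted p = 0.00972). An intronic peak 19.2 kb downstream of the first start was lower in anergic cells than in every other group, with 84.6, 50.1 and 46.3 in the anergic libraries and 180.2, 140.5 and 166 in Treg. Teff libraries read 153, 187 and 112, and naive libraries 151 and 189. This was -1.33 ± 0.26 on the log2 scale (adjusted p = 0.000368) for anergic over Teff, -1.46 ± 0.26 for anergic over Treg and -1.52 ± 0.29 for anergic over naive.

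A single Ccnd3 peak was higher in anergic than in naive and Treg cells. This intronic peak, 28.7 kb upstream of the second start and with its AP-1 match printed above, read 171, 255 and 144 in the anergic libraries and 86.7, 80.9 and 35.5 in Treg. Teff libraries read 139.8, 151 and 80.005, and naive libraries 12.2 and 20.9. All non-naive libraries were above both naive libraries. All anergic libraries were above all Treg libraries, while anergic and Teff libraries overlapped. Its log2 fold change was 3.45 ± 0.40 (adjusted p = 1.99e-07) for anergic over naive, 2.82 ± 0.40 (adjusted p = 6.27e-06) for Teff over naive and 1.53 ± 0.36 (adjusted p = 0.00215) for anergic over Treg. It was 0.62 ± 0.36 (adjusted p = 0.198) for anergic over Teff. By contrast, a peak 22.9 kb downstream of the first start was highest in naive cells, at 150.3 ± 37.6 in anergic, 184 ± 14.3 in Treg, 175 ± 11.1 in Teff and 409.5 ± 68.9 in naive cells. One 31.1 kb downstream was lower in anergic than in Treg cells (-1.70 ± 0.36, adjusted p = 0.00109) and naive cells (-1.93 ± 0.41, adjusted p = 0.000390). Ccnd3 peaks 6.73 and 7.52 kb downstream of the second start lay in the 3′ UTR of the neighbouring gene Bysl.

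The remaining D-type cyclin, Ccnd1, had only an intronic peak 2.16 kb downstream, which averaged 110.4 ± 25.3 in anergic, 189 ± 23.3 in Treg, 107 ± 19.1 in Teff and 168 ± 26.5 in naive cells. All Treg libraries were above all anergic and Teff libraries, at -0.79 ± 0.23 (adjusted p = 0.0105) for anergic over Treg and 0.83 ± 0.23 (adjusted p = 0.00786) for Treg over Teff. The first of these lost its call without Treg replicate 1 (adjusted p = 0.0546) or anergic replicate 2 (adjusted p = 0.0604). For the E-type cyclin Ccne1, which starts DNA replication with Cdk2, the promoter had no call, at 6524 ± 909 in anergic, 6460.2 ± 998 in Treg, 6402 ± 534 in Teff and 6389.9 ± 558 in naive cells, with overlapping libraries. Its intronic peak 3.16 kb downstream read 139, 118 and 140.4 in the anergic libraries and 59.7, 123 and 79.8 in Treg. Teff libraries read 89.3, 65.2 and 108, and naive libraries 242 and 233. Both naive libraries were above all others, at -1.46 ± 0.30 (adjusted p = 0.000425) for Teff over naive and -1.49 ± 0.30 (adjusted p = 0.000304) for Treg over naive. An intergenic Ccne1 peak 12.95 kb downstream was lower in anergic than in Teff cells, at -0.68 ± 0.23 (adjusted p = 0.0286), a call that was lost in 3 of 18 alternatives. Another 23.9 kb upstream was lower in anergic than in Treg cells, at -0.90 ± 0.28 (adjusted p = 0.0165), lost in 2. The promoter of Ccne2, the other E-type cyclin, was lower in Treg cells, at -0.39 ± 0.09 (adjusted p = 0.00265) against Teff cells.

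Among mitotic cyclins, the promoter of Ccnb2 had its highest mean in anergic cells, with 1061, 712 and 875 in the anergic libraries and 719.6, 813 and 655 in Treg. Teff libraries read 658, 633 and 648, and naive libraries 548 and 530.4. All anergic libraries were above all Teff libraries, and both naive libraries were below every other library. The log2 fold change was 0.69 ± 0.16 (adjusted p = 0.000891) for anergic over naive, 0.43 ± 0.14 (adjusted p = 0.0228) for anergic over Teff and 0.43 ± 0.16 (adjusted p = 0.0316) for Treg over naive. Anergic and Treg libraries overlapped, at 0.26 ± 0.14 (adjusted p = 0.160). The Ccnb1 promoter did not differ between groups by the test (2380.0 ± 143 in anergic, 2066 ± 253 in Treg, 2335 ± 136 in Teff and 2191 ± 62.1 in naive cells). A peak 19.5 kb upstream of Ccnb1, in an intron of Slc30a5, was lower in every non-naive group than in naive cells, at 56.9 ± 25.6 in anergic, 24.4 ± 9.25 in Treg, 41.5 ± 8.84 in Teff and 135 ± 22.5 in naive cells. Its calls for anergic and for Teff over naive were lost without naive replicate 1, and that for anergic also without anergic replicate 3. For Ccna2, the cyclin of S phase and mitotic entry, the peak in the 5′ UTR was lower in Treg cells (3241 ± 50.03) than in Teff cells (3974 ± 275), at -0.29 ± 0.09 (adjusted p = 0.0174). Ccng1, a p53 target, was higher at its promoter in anergic cells (1896 ± 123) than in naive cells (1444 ± 223), at 0.40 ± 0.12 (adjusted p = 0.00931). A weak Ccng1 peak 10.7 kb downstream averaged 38.1 ± 13.1 in anergic, 40.1 ± 0.719 in Treg, 39.1 ± 19.6 in Teff and 85.7 ± 4.04 in naive cells. Its call for Teff over naive, -1.21 ± 0.43 (adjusted p = 0.0297), was lost in 4 of 18 alternatives.

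The 5 kinases held 8 peaks, of which 2 (25%, background 15.9%) were higher and none (background 16.8%) lower in anergic than in Teff cells. Both were in introns of Cdk6, a D-cyclin kinase, and their groups followed the same order. The peak 12.2 kb downstream of the start, at chr5:3355645-3356447, read 639.98, 711 and 636 in the anergic libraries and 329, 338 and 355 in Treg. Teff libraries read 205, 266 and 278, and naive libraries 88.6 and 37.2. The peak 39.9 kb downstream, at chr5:3383588-3383988, read 411, 351 and 371 in the anergic libraries and 287, 304 and 242 in Treg. Teff libraries read 171, 199.9 and 182, and naive libraries 24.4 and 43.4. At each of them every anergic library was above every Treg library, every Treg library above every Teff library and every Teff library above both naive libraries.

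At the nearer Cdk6 peak, whose AP-1 match is printed above, the log2 fold change was 3.50 ± 0.25 (adjusted p = 1.32e-10) for anergic over naive, 1.41 ± 0.23 (adjusted p = 3.92e-05) for anergic over Teff and 0.96 ± 0.23 (adjusted p = 0.00248) for anergic over Treg. At the farther Cdk6 peak it was 3.49 ± 0.23 (adjusted p = 4.18e-11), 1.03 ± 0.21 (adjusted p = 0.000516) and 0.45 ± 0.21 (adjusted p = 0.106) in the same comparisons. The difference between anergic and Treg cells did not pass there. Teff cells were also above naive cells at both, by 2.09 ± 0.25 and 2.46 ± 0.23. The calls of anergic cells at the nearer peak and of Teff over naive at the farther one held under all 18 alternatives. The myeloid sum and the Foxp3 peak were also higher in anergic than in Teff libraries, and their part was not tested. At the Cdk1 promoter, the start of the mitotic kinase, the signal was 1119, 1169 and 1151 in the anergic libraries and 1039, 1083 and 1033 in Treg. Teff libraries read 1083, 1193 and 992, and naive libraries 755 and 801. Both naive libraries were below all others, at 0.56 ± 0.12 (adjusted p = 0.000683) for anergic over naive, 0.48 ± 0.12 (adjusted p = 0.00375) for Teff over naive and 0.44 ± 0.12 (adjusted p = 0.00699) for Treg over naive. The Teff libraries overlapped both anergic and Treg libraries. The main Cdk2 promoter peak averaged 1470.3 ± 77.6 in anergic, 1504 ± 69.8 in Treg, 1697 ± 77.3 in Teff and 1471 ± 85.4 in naive cells, with no call. A weak peak 417 bases upstream of Cdk2, chosen after its values were seen, was lower in anergic than in naive cells, at -0.84 ± 0.30 (adjusted p = 0.0259).

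**Figure D3:**
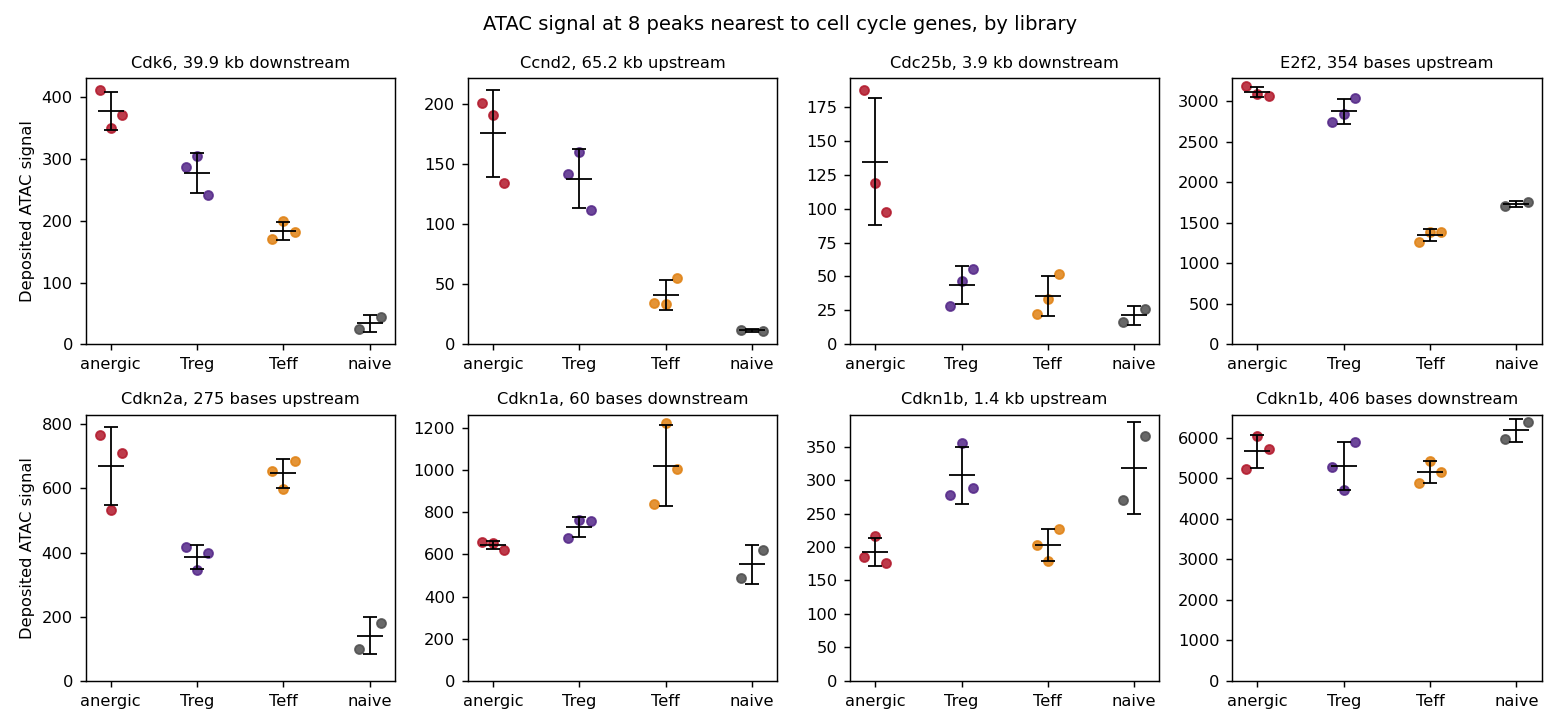
Deposited ATAC signal (vertical axes, linear, from 0) at 8 peaks nearest to Cdk6, Ccnd2, Cdc25b, E2f2, Cdkn2a, Cdkn1a and Cdkn1b. Points are libraries, long bars group means and error bars SD (n = 3 for anergic, Treg and Teff, n = 2 for naive). Anergic libraries are highest at Cdk6 and Cdc25b, anergic and Treg libraries together at E2f2 and Ccnd2, Teff libraries at the Cdkn1a start, and Treg and naive libraries at the Cdkn1b peak 1.40 kb upstream.

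Of the 3 Cdc25 phosphatases, which remove inhibitory phosphates from the kinases, Cdc25b had a peak that was open mainly in anergic cells. This intronic peak 3.86 kb downstream of the start, at chr2:131190713-131190911, read 187, 119 and 97.4 in the anergic libraries and 28.2, 46.8 and 55.7 in Treg. Teff libraries read 22.2, 33.04 and 51.7, and naive libraries 16.2 and 26.3. All anergic libraries were above all others, at 1.92 ± 0.40 (adjusted p = 0.000630) for anergic over Teff, 1.61 ± 0.40 (adjusted p = 0.00357) for anergic over Treg and 2.59 ± 0.44 (adjusted p = 4.04e-05) for anergic over naive. At the Cdc25a promoter the Treg libraries were lowest, with 3871, 3936 and 4142 in the anergic libraries and 3024, 2920.5 and 3055 in Treg. Teff libraries read 3573, 3456 and 3350.2, and naive libraries 4056 and 4144. The log2 difference was 0.41 ± 0.08 (adjusted p = 0.000809) for anergic over Treg and -0.45 ± 0.09 (adjusted p = 0.000528) for Treg over naive. The Cdc25b promoter was likewise lower in Treg cells (1059 ± 73.7) than in Teff cells (1410.4 ± 79.7), at -0.41 ± 0.11 (adjusted p = 0.00597) for Treg over Teff, and the Cdc25c promoter showed no call. Under the deposited scaling, lower promoter signal in Treg cells was common to many genes. Of member promoter peaks 21.3%, and of all promoter peaks 20.6%, were higher in anergic than in Treg cells. The median log2 fold change over all promoter peaks was 0.11, and scaling to total reads in peaks moved the median over all peaks by -0.12. The Cdc25a and Cdc25b promoter calls were not recomputed under that scaling. Other small promoter differences with Treg cells have the same limit.

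The 6 inhibitors held 13 peaks. Relative to Teff cells, none (background 15.9%) was higher and 1 (7.69%, background 16.8%) was lower in anergic cells. Relative to naive cells 4 were higher (30.8%, background 25.3%) and 3 lower (23.1%, background 25.1%). The largest fold change was at Cdkn2a, which encodes the kinase inhibitor Ink4a and, from an outer start, the Mdm2 inhibitor Arf. The peak 275 bases upstream of the Arf start, at chr4:89294486-89295303, read 768, 534 and 711 in the anergic libraries and 417, 345 and 400.1 in Treg. Teff libraries read 654, 599 and 687, and naive libraries 101 and 182. Both naive libraries were below all other libraries. All Treg libraries were below all anergic and Teff libraries. By limma the log2 fold change was 2.28 ± 0.21 (adjusted p = 6.55e-09) for anergic over naive, 2.24 ± 0.21 (adjusted p = 2.00e-08) for Teff over naive, 1.504 ± 0.21 (adjusted p = 5.07e-06) for Treg over naive and 0.78 ± 0.19 (adjusted p = 0.00293) for anergic over Treg. Anergic and Teff cells overlapped, at 0.04 ± 0.19 (adjusted p = 0.907). The predicted gene Gm12610 starts 0.286 kb from the centre of the same peak. No peak lay within 1000 bases of the inner, Ink4a start.

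Cdkn1a, the Cip1 inhibitor induced by p53, was most open in Teff cells at its start. The 5′ UTR peak 60 bases downstream read 659.9, 653 and 621 in the anergic libraries and 678, 762 and 757 in Treg. Teff libraries read 838, 1223 and 1005, and naive libraries 489 and 619. Every Teff library was above every other library, and the log2 fold change was -0.65 ± 0.14 (adjusted p = 0.00109) for anergic over Teff, 0.87 ± 0.16 (adjusted p = 0.000134) for Teff over naive and -0.46 ± 0.14 (adjusted p = 0.0153) for Treg over Teff. The larger intronic peak 1.34 kb downstream differed less, at 2906 ± 209 in anergic, 2939.8 ± 115 in Treg, 3082 ± 179 in Teff and 2386 ± 103 in naive cells. It was higher in all non-naive groups than in naive cells, by 0.28 ± 0.10 in anergic and 0.37 ± 0.10 in Teff cells.

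Cdkn1b, the Kip1 inhibitor, had a strong promoter that did not differ in any comparison, with 5221, 6038 and 5725 in the anergic libraries and 5277, 4702 and 5890.1 in Treg. Teff libraries read 4885, 5425 and 5157, and naive libraries 5972 and 6379.7. Upstream of it, 3 weaker peaks shared another order, of which the nearest was chosen after its values were seen. The peak 1.40 kb upstream read 186, 217 and 177 in the anergic libraries and 277, 355 and 289 in Treg. Teff libraries read 203, 179 and 227, and naive libraries 269.7 and 366. The peak 3.12 kb upstream averaged 143 ± 32.5 in anergic, 218 ± 19.1 in Treg, 163 ± 36.7 in Teff and 298 ± 8.47 in naive cells. The peak 3.60 kb upstream averaged 120.1 ± 14.04 in anergic, 186 ± 29.5 in Treg, 115 ± 26.8 in Teff and 214 ± 25.2 in naive cells. At all 3, every Treg and naive library was above every anergic and Teff library. The peak nearest to Cd8b1, a CD8 T cell marker, also separated these groups, at 115 to 285 in anergic, 613 to 750.03 in Treg, 179 to 227 in Teff and 1117 to 1149.75 in naive libraries, and its part was not tested. Within the CD8, NK and innate-like T list, Eomes split the groups in the same way, while Zbtb16 and Xcl1 were highest in Teff libraries. Klrb1c overlapped between groups. The log2 fold changes of the 3 Cdkn1b peaks for anergic over Treg were -0.66 ± 0.18, -0.63 ± 0.21 and -0.62 ± 0.22 from nearest to farthest (adjusted p = 0.00777, 0.0262 and 0.0336 by limma). For anergic over naive they were -0.71 ± 0.21, -1.08 ± 0.24 and -0.83 ± 0.25. An intronic Cdkn1b peak 2.61 kb downstream, also chosen in that way, was higher in anergic than in naive cells, at 1.07 ± 0.31 (adjusted p = 0.00587). Of the Ink4 inhibitors, the Cdkn2c promoter was lowest in Treg cells, with 2026 ± 304 in anergic, 1568 ± 19.7 in Treg, 2219 ± 199.7 in Teff and 2054 ± 162 in naive cells. This was 0.36 ± 0.11 on the log2 scale (adjusted p = 0.0195) for anergic over Treg. The Cdkn2d promoter was likewise higher in anergic (10559 ± 512) than in Treg cells (8639 ± 640.4), at 0.29 ± 0.08 (adjusted p = 0.00876).

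The pocket proteins held 17 peaks in 3 genes, with 1 higher (5.88%, background 15.9%) and 7 lower (41.2%, background 16.8%) in anergic than in Teff cells. Rbl2, the pocket protein that prevails in resting cells, accounted for 5 of those 7. The peak 18.6 kb downstream of its start, at chr8:91088500-91088870 in an intron, read 53.1, 26.9 and 19.5 in the anergic libraries and 54.1, 36.2 and 18.99 in Treg. Teff libraries read 294, 348 and 312, and naive libraries 4.87 and 13.2. The peak 12.5 kb downstream, at chr8:91082437-91082760, read 129, 123 and 112 in the anergic libraries and 108, 128 and 104 in Treg. Teff libraries read 392, 349 and 262, and naive libraries 28.4 and 24.001. Every Teff library was above every other library at both peaks, and every anergic and Treg library was above both naive libraries. The log2 fold change at the farther peak was -3.34 ± 0.44 (adjusted p = 3.73e-06) for anergic over Teff, -3.21 ± 0.44 (adjusted p = 7.93e-06) for Treg over Teff and 5.12 ± 0.49 (adjusted p = 2.64e-08) for Teff over naive. At the nearer peak these were -1.43 ± 0.23 (adjusted p = 3.50e-05), -1.54 ± 0.23 (adjusted p = 2.04e-05) and 3.61 ± 0.25 (adjusted p = 2.51e-10).

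The other 3 intronic Rbl2 peaks, singled out after their values were seen, lay 3.90 kb, 7.57 kb and 12.1 kb downstream and had the same highest group. The first averaged 190.4 ± 26.8 in anergic, 147 ± 29.8 in Treg, 372 ± 28.8 in Teff and 49.7 ± 15.1 in naive cells. The second averaged 101 ± 43.8 in anergic, 169.99 ± 53.7 in Treg, 419 ± 61.4 in Teff and 46.02 ± 21.4 in naive cells. For the third the means were 58.7 ± 15.2 in anergic, 68.2 ± 5.19 in Treg, 132 ± 8.95 in Teff and 19.7 ± 4.93 in naive cells. Anergic over Teff was -0.97 ± 0.22, -2.13 ± 0.31 and -1.18 ± 0.30 on the log2 scale. The Rbl2 promoter moved in another direction, with 2518, 2871 and 2913 in the anergic libraries and 2422, 2627 and 2809.6 in Treg. Teff libraries read 2717, 2791 and 2735, and naive libraries 3481 and 3618. Both naive libraries were above all others, at -0.36 ± 0.11 (adjusted p = 0.00660) for anergic over naive and -0.37 ± 0.11 (adjusted p = 0.00784) for Teff over naive, while anergic and Teff cells differed by 0.01 ± 0.09 (adjusted p = 0.966). Within the CD8, NK and innate-like T list, the summed signal of 13 peaks nearest to Zbtb16, which encodes a regulator of innate-like T cells, was 859 to 1162 in anergic, 449 to 762 in Treg, 5074 to 7164 in Teff and 394 to 496 in naive libraries. Xcl1, a chemokine gene, was also highest in Teff cells, at 34.8 to 45.3 in anergic, 34.2 to 104 in Treg, 258 to 590 in Teff and 7.31 to 19.4 in naive libraries. Cd8b1 and Eomes were highest in naive libraries, and Klrb1c overlapped between groups. Without Zbtb16, the list summed to 19954 to 25618 in anergic, 19095 to 24475 in Treg, 20381 to 22392 in Teff and 23545 to 23923 in naive libraries. The part of these cells in the Rbl2 values was not tested.

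**Figure D4:**
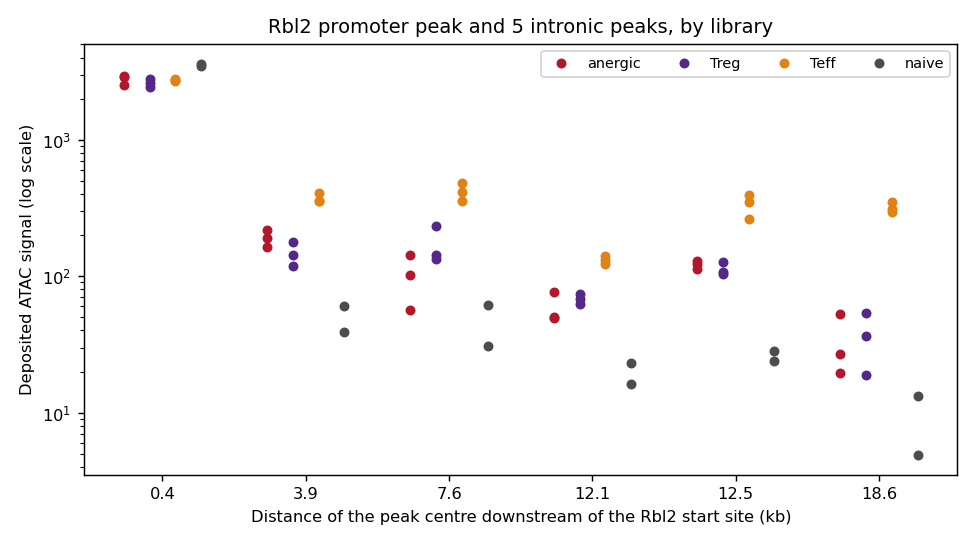
Deposited ATAC signal (vertical axis, log scale) in each library at the Rbl2 promoter peak and 5 intronic peaks, placed in order of their distance from the start site (horizontal axis, kb, not to scale). At the 5 intronic peaks Teff libraries are highest and naive libraries lowest, apart from 1 anergic library that lies within the naive range at 7.57 kb, and at the promoter naive libraries are highest.

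Rb1, the retinoblastoma protein itself, had 6 peaks without a shared direction. The intergenic peak 14.4 kb upstream was highest in anergic cells, with 162, 189 and 212 in the anergic libraries and 151, 136 and 75.97 in Treg. Teff libraries read 45.7, 59.5 and 55.003, and naive libraries 52.8 and 60.4. This was 1.80 ± 0.27 on the log2 scale (adjusted p = 2.27e-05) for anergic over Teff. Anergic over Treg, at 0.68 ± 0.27 (adjusted p = 0.0582), did not pass. The next peak, 23.6 kb upstream, was lowest in anergic cells, with 103, 100.2 and 80.6 in the anergic libraries and 181, 175 and 137 in Treg. Teff libraries read 294, 176 and 185, and naive libraries 321 and 201. This was -1.17 ± 0.24 on the log2 scale (adjusted p = 0.000491) for anergic over Teff and -1.42 ± 0.26 (adjusted p = 9.85e-05) for anergic over naive. An intronic peak 35.8 kb downstream averaged 142 ± 40.9 in anergic, 81.6 ± 29.6 in Treg, 212 ± 76.3 in Teff and 54.7 ± 22.6 in naive cells. Its call for anergic over Treg, 0.83 ± 0.32 (adjusted p = 0.0497), was lost in 11 of 18 alternatives. A weak peak 764 bases upstream of the start was lower in anergic than in Treg cells, at -1.08 ± 0.34 (adjusted p = 0.0168). That call was lost in 3 of 18. The main Rb1 promoter peak was lower in anergic (1626 ± 111) than in Teff cells (2092 ± 268), at -0.36 ± 0.13 (adjusted p = 0.0344). The 4 peaks of Rbl1, the third family member, had no call.

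The 8 E2F genes held 20 peaks, with 3 higher (15%, background 15.9%) and 1 lower (5%, background 16.8%) in anergic than in Teff cells. Against Treg cells 3 were higher and 1 lower, the same shares against backgrounds of 19.4% and 14.8%. The activating factor E2f2 accounted for all 3 that were higher than in Teff cells. At its second start, inside the gene, the peak centred 354 bases upstream, at chr4:136180001-136180856, read 3187, 3093 and 3061 in the anergic libraries and 2741, 2848 and 3037 in Treg. Teff libraries read 1261, 1388 and 1392, and naive libraries 1709 and 1755. All anergic and Treg libraries were above both other groups, and naive libraries were above Teff. On the log2 scale the difference was 1.21 ± 0.09 (adjusted p = 4.28e-09) for anergic over Teff, 1.09 ± 0.09 (adjusted p = 1.93e-08) for Treg over Teff and -0.36 ± 0.11 (adjusted p = 0.00859) for Teff over naive, with 0.12 ± 0.09 (adjusted p = 0.366) for anergic over Treg. A weaker peak 356 bases downstream of the same start read 234, 135 and 169 in the anergic libraries and 225, 251 and 289 in Treg. Teff libraries read 42.9, 58.6 and 95.01, and naive libraries 43.1 and 51.1. This was 1.48 ± 0.28 on the log2 scale (adjusted p = 0.000222) for anergic over Teff and 2.41 ± 0.31 (adjusted p = 1.60e-06) for Treg over naive.

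At the first E2f2 start the peak, shown for contrast, averaged 535 ± 19.9 in anergic, 541 ± 53.5 in Treg, 422 ± 6.85 in Teff and 480.02 ± 88.7 in naive cells. No comparison passed (0.34 ± 0.14, adjusted p = 0.0685 for anergic over Teff). Within the same gene, an intronic peak 9.30 kb downstream of the second start was highest in naive cells, with 134, 162 and 138 in the anergic libraries and 173, 166 and 110.2 in Treg. Teff libraries read 243, 173 and 193, and naive libraries 497 and 382. This was -1.59 ± 0.24 on the log2 scale (adjusted p = 6.91e-06) for anergic over naive. A peak 11.96 kb upstream of the first start, chosen after its values were seen, was higher in anergic than in Teff cells, at 0.68 ± 0.21 (adjusted p = 0.0140). The gene Id3 is the next gene to it, at 16.5 kb. The Foxp3 peak was likewise higher in Treg and, at a lower level, in anergic libraries than in Teff libraries, and its part in the E2f2 values was not tested.

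Of the other E2F genes, E2f4 had no call, E2f8 had a call at a distal peak, and E2f1, E2f3, E2f5, E2f6 and E2f7 had calls at promoters. E2f1, an activator, averaged 4626 ± 491 in anergic, 3795 ± 268 in Treg, 4952 ± 169 in Teff and 5585 ± 301 in naive cells. Treg cells were lowest, at -0.56 ± 0.10 (adjusted p = 0.000167) for Treg over naive and -0.39 ± 0.09 (adjusted p = 0.00306) for Treg over Teff. E2f3 had a pair of promoter peaks that differed in opposite ways in Treg cells. The stronger was lower in Treg than in naive cells (-0.31 ± 0.11), and the weaker, 248 bases upstream of another start and chosen after its values were seen, was higher in Treg (0.43 ± 0.12), anergic (0.38 ± 0.12) and Teff cells (0.67 ± 0.12) than in naive cells. E2f5, a repressor, and E2f7, an atypical repressor, were lower in Treg than in naive cells, at -0.44 ± 0.12 and -0.40 ± 0.11. E2f6, a repressor that does not bind pocket proteins, was lower in anergic (489 ± 66.01) than in naive cells (704 ± 3.24), at -0.53 ± 0.16 (adjusted p = 0.00694). E2f8, an atypical repressor, had only a weak intronic peak 4.31 kb downstream, higher in anergic (76.9 ± 20.2) than in naive cells (36.1 ± 23.4), at 1.20 ± 0.41 (adjusted p = 0.0174).

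The 4 BTG and TOB genes held 45 peaks, 31 of them nearest to Btg1, which has no other start of a RefSeq curated transcript within 100 kb on either side. Of the 31, 6 were higher and 2 lower in anergic than in Teff cells, 3 higher and 10 lower than in Treg cells, and 8 higher and 13 lower than in naive cells. Among these peaks 30 were distal. The shares higher and lower were 19.4% and 6.45% against Teff (all distal peaks 19.9% and 21.2%), 9.68% and 32.3% against Treg (18.8% and 18.6%) and 25.8% and 41.9% against naive cells (30.4% and 29.4%). The Btg1 promoter read 11644, 10926 and 12517 in the anergic libraries and 11454, 9819 and 12046 in Treg. Teff libraries read 10324, 11870.5 and 11296, and naive libraries 13415 and 13925. It was lower in Teff and Treg than in naive cells (-0.29 ± 0.10 and -0.30 ± 0.10), and anergic and Teff cells overlapped.

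A peak 110.2 kb downstream of Btg1 was open in anergic and Treg cells. This intergenic peak, at chr10:96726933-96727438, read 332, 309 and 409 in the anergic libraries and 260.1, 289 and 254 in Treg. Teff libraries read 65.8, 41.3 and 78.3, and naive libraries 64.2 and 40.3. All anergic and Treg libraries were above all Teff and naive libraries. The log2 fold change for anergic over Teff was 2.52 ± 0.25 (adjusted p = 8.62e-08), and for anergic over Treg 0.37 ± 0.25 (adjusted p = 0.253), which did not pass. The next gene start, 4930556N09Rik, was 309 kb from this peak. The Foxp3 peak and the myeloid sum were higher in anergic than in Teff libraries here as well, and their part was not tested.

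Other Btg1 peaks followed other groups. The peak 69.04 kb downstream was highest in Treg cells, with 94.5, 79.1 and 57.1 in the anergic libraries and 381, 294 and 441 in Treg. Teff libraries read 31.2, 40.5 and 73.3, and naive libraries 128 and 109.9. This was -2.27 ± 0.29 on the log2 scale (adjusted p = 4.17e-06) for anergic over Treg and 2.99 ± 0.29 (adjusted p = 9.27e-08) for Treg over Teff, and every Treg library was above every other library. A peak 156 kb upstream was highest in anergic cells, at 331 ± 62.2 in anergic, 148 ± 32.4 in Treg, 146 ± 24.5 in Teff and 167 ± 22.9 in naive cells. This was 1.17 ± 0.21 on the log2 scale for anergic over Teff. A peak 17.1 kb upstream was highest in Teff cells, at 358 ± 39.2 in anergic, 380.2 ± 72.2 in Treg, 638 ± 118 in Teff and 357 ± 49.2 in naive cells. This was -0.82 ± 0.17 on the log2 scale for anergic over Teff. The peak 28.6 kb upstream was open in all non-naive groups, with 211, 226 and 232 in the anergic libraries and 325, 364 and 414 in Treg. Teff libraries read 395, 419.6 and 318, and naive libraries 92.6 and 84.4. It was lower in anergic than in Teff cells (-0.75 ± 0.17, adjusted p = 0.00168) but above naive cells (1.32 ± 0.19, adjusted p = 5.21e-06). Peaks 32.7 kb and 135 kb downstream were open in Treg and naive cells, the farther one averaging 29.9 ± 5.03 in anergic, 114 ± 13.1 in Treg, 45.5 ± 12.7 in Teff and 119 ± 7.97 in naive cells. This was -1.96 ± 0.34 on the log2 scale (adjusted p = 4.49e-05) for anergic over naive. Cd8b1 and Eomes, named above, were likewise higher in Treg and naive libraries, while Zbtb16 and Xcl1 of the same list were highest in Teff. The part of these cells was not tested. The peak 7.37 kb upstream was lowest in Treg cells, at -0.93 ± 0.18 (adjusted p = 0.000415) for Treg over Teff.

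**Figure D5:**
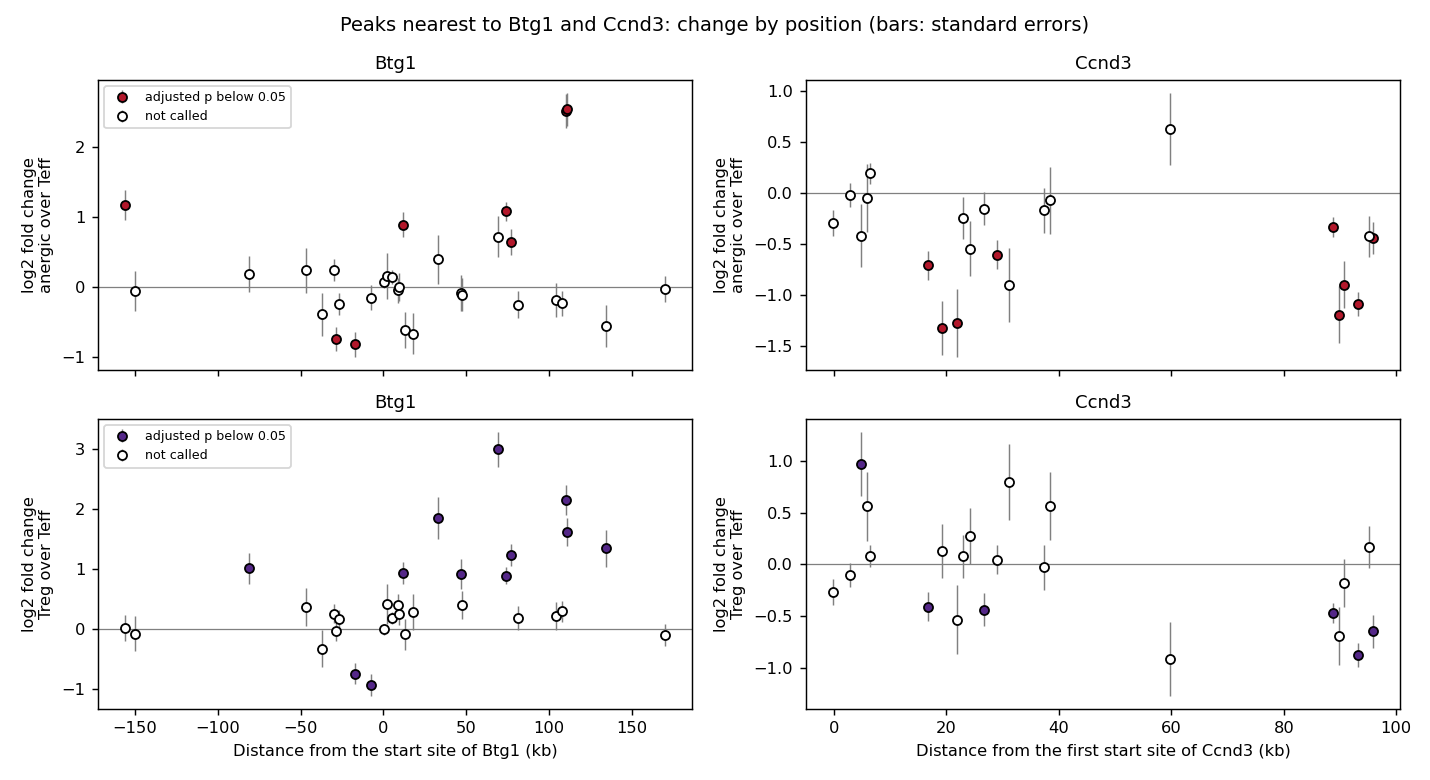
Log2 fold change at the 31 peaks nearest to Btg1 (left) and the 22 nearest to Ccnd3 (right) by distance from the start site in kb (for Ccnd3 from the first start), for anergic over Teff (top) and Treg over Teff (bottom). Filled points passed adjusted p = 0.05 and bars are standard errors, with Btg1 calls in both directions and all 9 Ccnd3 calls for anergic over Teff below 0.

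Btg2, the close relative of Btg1, had no call at its promoter, at 6742 ± 487 in anergic, 6817 ± 683 in Treg, 6549.9 ± 595 in Teff and 6533 ± 1057 in naive cells. A peak 4.02 kb upstream of Btg2 was higher in non-naive cells, with 297, 347 and 352 in the anergic libraries and 309, 381 and 384 in Treg. Teff libraries read 287, 383 and 277, and naive libraries 129.995 and 188. This was 1.08 ± 0.21 on the log2 scale (adjusted p = 0.000137) for anergic over naive and 1.18 ± 0.21 (adjusted p = 7.54e-05) for Treg over naive. Tob1, an inhibitor of T cell proliferation, had no call at its promoter either, at 10970.2 ± 675 in anergic, 11106 ± 1134 in Treg, 10493 ± 1163 in Teff and 10267 ± 879 in naive cells. Its peak 12.3 kb downstream was lower in anergic (65.1 ± 6.82) and Treg (62.7 ± 19.7) than in naive cells (158 ± 66.9), at -1.20 ± 0.32 (adjusted p = 0.00311) for anergic over naive. Its calls against Teff cells were lost in 5 (anergic) and 6 (Treg) of 18 alternatives, and that for Treg over naive without naive replicate 2. The Tob2 promoter was slightly higher in anergic (6734 ± 356) than in Teff cells (5536 ± 299), at 0.28 ± 0.09 (adjusted p = 0.0138), and a Tob2 peak 1.92 kb downstream was higher in Teff (1028 ± 66.6) than in naive cells (749 ± 16.5), at 0.45 ± 0.13 (adjusted p = 0.00881).

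For the wider pathway, 85 other cell cycle genes (further cyclins and kinases, E2F partners, the DREAM and MYB genes, checkpoint, replication and mitosis genes) were read in the same way. Of these, 72 had a nearest peak, 202 peaks in all, and 24 peaks (11.9%) were higher and 24 (11.9%) lower in anergic than in Teff cells. Relative to naive cells 43 were higher and 45 lower in anergic cells, and relative to Treg cells 33 were higher and 31 lower. Teff over naive gave 36 higher and 28 lower, Treg over naive 38 and 50, and Treg over Teff 27 and 30. These shares lie at or below the background of all peaks except for Treg over naive, where 24.8% were lower against a background of 23.0%, and anergic over Treg, where 15.3% were lower against 14.8%.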

How the data were processed

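The submitters trimmed reads with Trimmomatic 0.38.1, aligned them to mm10 with Bowtie2 2.3.3.1, converted them with SAMtools 1.13, called peaks in each sample with Genrich 0.5 (duplicates removed, cut sites adjusted, mitochondrial and blacklisted reads excluded) and merged them into consensus peaks with DiffBind 2.10.0, per the series design text. The deposited values are ATAC signal per peak for each library, which the authors scaled by a method not given in the sources used here. Each column held whole multiples of its smallest value (100% of values, tolerance 0.01), so 1 read was worth 0.527 to 2.13 signal. Values are thus comparable across libraries only under that scaling, and alternatives are reported.

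RefSeq start sites of curated NM and NR transcripts (45756, GRCm38.p6) gave the nearest gene for 38441 peaks on chromosomes. The 68 peaks on contigs got none. Starts in the table count from 0 and were raised by 1. The test was limma 3.58.1 in R 4.3.3, with intensity trend, on log2(signal + 1), all 11 libraries and group as the term, with Benjamini-Hochberg adjustment over 38493 peaks (16 with few reads left out) and a threshold of 0.05. Fold changes are on that log2 scale, which understates those of weak peaks, and their errors are standard errors, while those of signals are SD (n = 3, naive n = 2). All comparisons share libraries. Tests on recovered reads with edgeR 4.0.16 and DESeq2 1.42.0 were alternatives, and the scripts were checked on simulated data. The labels give no batch.

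The members, the lists and the tests were chosen with earlier results of these data known. Named peaks are each gene's strongest promoter peak, up to 6 higher and 6 lower peaks per comparison (largest fold change, libraries not overlapping, 1 per gene), and the distal peak with the smallest F-test p of each gene. Other peaks are marked where described. RefSeq promoter windows matched 30 of 39 genes. Some marker genes of other cell types and a Btg1 peak are not reported here.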

Additional observations from a re-analysis of the deposited data

How the results depend on the processing

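Each count was recomputed with pseudocount 5, without the filter, and with libraries scaled to total reads in peaks or by TMM. It was also recomputed with edgeR and DESeq2 on recovered reads, with the replicate number as a block, and without each library in turn. The same was done for 72 changes, those at the named peaks with the largest fold changes in each comparison. Calls at the other named peaks, among them most promoter peaks, were not recomputed, so their dependence on scaling was not tested. The counts were also taken within 100 kb of a start. Of 247 counts under alternatives, 238 stayed within 1.5 times and 9 did not. With total reads in peaks as the scale, 11 member peaks were higher in anergic than in Treg cells and 37 higher in Treg than in Teff cells. Over all peaks these counts were 5619 and 7510, against 7462 and 5535 under the deposited scaling. Leaving out single libraries gave the following ranges of higher and lower counts: 15 to 20 and 17 to 22 for anergic over Teff, 27 to 37 and 26 to 46 for anergic over naive, 12 to 19 and 18 to 30 for anergic over Treg, 19 to 30 and 21 to 39 for Teff over naive, 22 to 33 and 19 to 31 for Treg over naive, and 18 to 29 and 16 to 23 for Treg over Teff, with 78 to 102 in the F-test. Counts over all peaks also moved when a library was left out. The causes were not tested.

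None of the 72 recomputed changes reversed, and 60 of them kept their call under all 18 alternatives. The edgeR test on recovered reads called 19 member peaks higher and 21 lower in anergic than in Teff cells, and 6469 and 6361 over all peaks. Replicate numbers are shared between groups, but the labels do not say whether same-numbered libraries belong together, and they were not read as pairs. Deviations from the group mean correlated at -0.11 to 0.16 for same-numbered libraries and at -0.22 to 0.19 for the others. With 2 or 3 libraries per group these deviations are tied to each other, so the correlations cannot decide whether libraries are paired. With the replicate block, 18 member peaks were higher and 22 lower in anergic than in Teff cells, 36 and 45 than in naive cells and 19 and 32 than in Treg cells. Teff over naive gave 28 and 32, Treg over naive 33 and 30, Treg over Teff 27 and 23, and the F-test 106. Over all peaks the block gave 6392 and 6843 for anergic over Teff, 9682 and 9537 over naive and 7843 and 6041 over Treg. Teff over naive gave 8811 and 6547 there, Treg over naive 8489 and 8673, and Treg over Teff 5813 and 7398. With 2 naive libraries and 14.7 M reads in the shallowest Treg library, small differences at weak peaks were not detectable.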

Other observations

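Cdkn2b, which encodes the kinase inhibitor Ink4b and lies beside Cdkn2a, was not among the 39 genes and was singled out after its values were seen. Its promoter peak averaged 2156 in anergic, 1073 in Treg, 1740 in Teff and 683 in naive cells. Anergic over Treg was 1.01 ± 0.12 (adjusted p = 1.86e-06) and anergic over Teff 0.31 ± 0.12 (adjusted p = 0.0568) by limma. All 4 distal peaks nearest to Cdkn2b were higher in anergic than in Teff cells. Anergic over Treg did not pass at the peak 40.2 kb away, 0.65 ± 0.46 (adjusted p = 0.294), and was 1.60 ± 0.52 (adjusted p = 0.0214) at the peak 40.7 kb away. The peak 167.9 kb away averaged 337 in anergic, 23.1 in Treg, 39.7 in Teff and 4.86 in naive cells, at 3.07 ± 0.47 (adjusted p = 2.57e-05) for anergic over Teff and 3.82 ± 0.47 (adjusted p = 2.8e-06) for anergic over Treg. The peak 175.1 kb away averaged 152 in anergic, 24.6 in Treg, 30.4 in Teff and 1.57 in naive cells, at 2.38 ± 0.57 (adjusted p = 0.00223) and 2.88 ± 0.57 (adjusted p = 0.000509) in the same comparisons. The naive signal at these distal peaks is worth a few reads, so no fold against naive cells is given. The myeloid list was also highest in anergic libraries, and its part in these values was not tested.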
